A study of Mus musculus with 24 samples.

Results

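Gene expression in R1 mouse embryonic stem (ES) cells with the lentiviral hairpin shMed12-2, which targets Med12, was compared with that in cells with the control hairpin shNTC, both on day 13. The arrays were chosen by their titles and number 6 of the 24 in the series, 3 in each group. Of all genes measured, 17.8% changed. Genes of the actin cytoskeleton and targets of the coactivator YAP were higher with shMed12-2, led by 3 muscle actins, together with keratins, interferon-response genes, the epiblast growth factor Fgf5 and enzymes of cholesterol synthesis. The naive pluripotency factors Klf4 and Tbx3 and the activin subunit gene Inhbb were lower. The ratios of Pou5f1 and Sox2, which define the ES cell, did not pass the test.

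R1 is an established line of mouse ES cells. The other groups of day 13 carried another hairpin against the same gene, shMed12-1 (3 arrays), or a hairpin against Cdk8, shCdk8-1 or shCdk8-2 (3 arrays each); all hairpins came by lentivirus. Replicates are biological per the labels, but separate infections or cultures are not stated; the p-values may therefore rest on technical spread alone. RNA of the cells was labelled with Cy5 and hybridised on 2-colour arrays against a Cy3-labelled universal mouse reference RNA, with no dye swap. Each value is the log2 ratio of cells to that reference, which sets the zero of every gene separately. Levels of different genes are therefore not compared, and a change is the difference of group means in log2 units, given with its standard error (SE) from the fit.

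Mediator is the large complex that carries signals from DNA-bound transcription factors to RNA polymerase II. Its kinase module, made of a cyclin-dependent kinase (Cdk8 or Cdk19), cyclin C, Med12 or Med12l and Med13 or Med13l, binds the rest of the complex reversibly and can repress or assist transcription. Med12 joins the kinase to the module and activates it, and in ES cells Mediator occupies the enhancers of pluripotency genes. The comparison asks which transcripts change when Med12 is lowered.

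Med12 itself stood at -1.11, -0.88 and -0.97 on the 3 shNTC arrays and at -1.84, -2.0 and -1.76 with shMed12-2. The groups did not overlap. Med12 fell by 0.88 (SE 0.0774, limma adjusted p = 6.58e-08), or 1.84-fold. A further probe of the gene gave -0.85. Within the 2 slides that held an array of each group, the differences were -0.96 and -1.03. The remaining module genes that were measured did not pass the test: the kinases Cdk8 (-0.17, adjusted p = 0.132) and Cdk19 (-0.03), cyclin C (Ccnc, 0.07) and Med13l (-0.10). Of 23 subunits of core Mediator, 2 rose and 1 fell, shares below those of all genes (9.04% rose and 8.77% fell): Med11 by 0.20 (adjusted p = 0.00561), Med28 by 0.18 (adjusted p = 0.0319; not called without shMed12-2 replicate 1) and Med21, a subunit of the middle part, to 0.27 below the control (adjusted p = 0.00832).

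Between 57.4% and 67.2% of spots were well above background on the 6 arrays, and ES cell markers were high on all of them. Pou5f1 ran from 6.46 to 6.66 in shNTC cells and from 6.44 to 6.58 with shMed12-2, and the ES cell gene Dppa5a from 9.09 to 9.38 and from 8.98 to 9.38. The arrays of shMed12-2 correlated with each other at r of 0.988 to 0.992 over all genes and with the shNTC arrays at 0.971 to 0.979. All 6 arrays with a hairpin against Med12 lay at position 4 of their slides and no other array did, so that position and Med12 knockdown cannot be told apart. Slides 1 and 2 each held 1 array of shNTC and 1 of shMed12-2.

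The shMed12-2 arrays stood apart from each other in some genes, and this touches the highest fold changes. Genes of plasma proteins made by hepatocytes, the secretory cells of the liver, were high in replicate 1, lower in replicate 3 and lowest in replicate 2. Haptoglobin (Hp) was at -3.40, -3.23 and -2.48 in shNTC cells and at 2.65, -1.58 and 0.89 in shMed12-2 replicates 1, 2 and 3. Fibrinogen beta chain (Fgb) was at 0.06, 0.16 and 0.49 and at 5.53, 1.25 and 3.85. Albumin (Alb) was at 0.04, 0.23 and 0.26 and at 4.28, 1.08 and 2.94. The groups did not overlap for any of these genes, but the shMed12-2 replicates lay further from each other than replicate 2 lay from the controls. Albumin was not well above background on any shNTC array, so no size is given for its difference. Fgb was well above background on 1 shNTC array and Hp on 2, and the size of their differences rests in part on dim control spots. The Cy3 signal was well above background on 2 of the 6 arrays for Alb and on 4 for Fgb.

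A list of 37 hepatocyte genes, drawn up after these values were seen and so not tested, had 29 measured members. Their mean ratio was between -0.56 and -0.41 on the shNTC arrays, and 2.04, -0.28 and 0.65 on shMed12-2 replicates 1, 2 and 3. At least 1 log2 unit above the shNTC mean were 24, 2 and 12 of the 29 members. Alpha-fetoprotein (Afp), the plasma protein of fetal liver and yolk sac, was at -3.97, -3.95 and -3.92 against -4.18 to -4.08 and did not pass (0.19, adjusted p = 0.701). The arrays of shMed12-1 had list means of -0.55 to -0.46 and those of shCdk8-2 on day 13 of -0.61 to -0.47. Other arrays lay above shMed12-2 replicate 2: shCdk8-1 replicate 3 on day 13, at -0.06 with 5 members at least 1 log2 unit up, and on day 8 shCdk8-2 replicate 2, at 0.05 with 6, and shNTC replicate 3, at -0.14 with 4. A list of 21 myeloid blood cell genes (17 measured) was also highest in shMed12-2 replicate 1, at -1.17 against -2.26 and -2.15 in the other replicates and -2.60 to -2.31 in shNTC cells; shCdk8-2 replicate 1 and shMed12-1 replicate 3 were at -1.03 and -1.13. Their part in the results was not tested. In all, 44 genes lay at least 1 log2 unit above the mean of the other replicates in shMed12-2 replicate 1, compared with 5 in replicate 2 and 1 in replicate 3. At least 1 below that mean were 1, 27 and 5 genes, so that replicate 2 stood apart downwards.

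**Figure D1:**
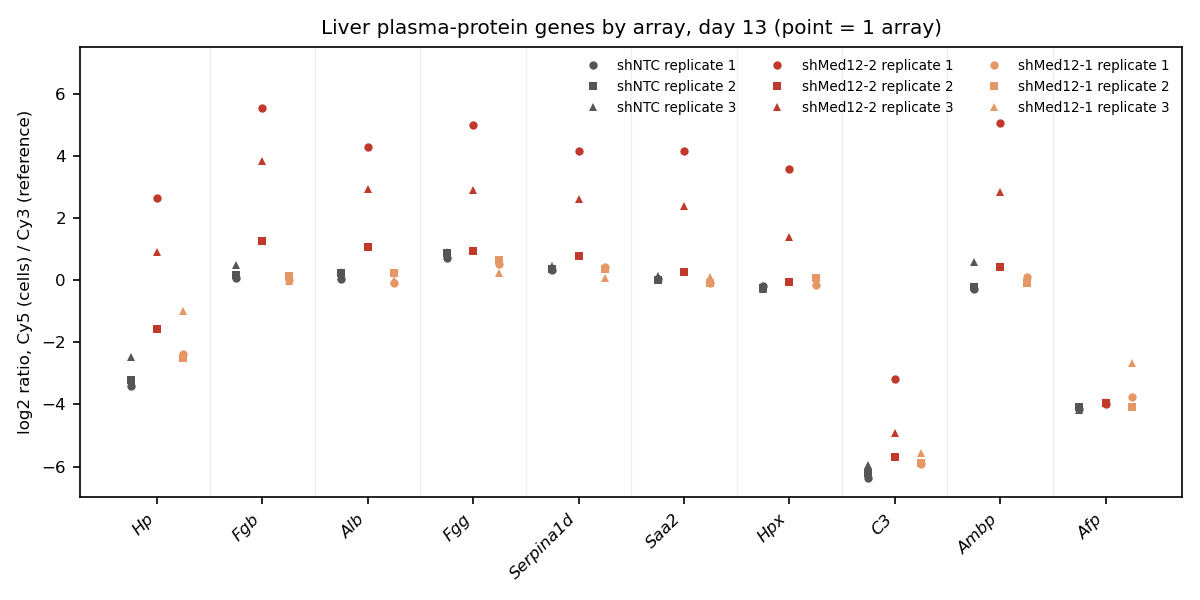
Log2 ratio of cells (Cy5) to reference (Cy3) for 10 genes of liver plasma proteins on the day 13 arrays of shNTC (grey), shMed12-2 (red) and shMed12-1 (orange), with a symbol for each replicate. In 9 of the genes shMed12-2 replicate 1 (circle) is highest, replicate 3 (triangle) next and replicate 2 (square) closest to the controls, while the shMed12-2 points of Afp lie just above those of shNTC.

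Over all 22394 genes, 3988 (17.8%) were called at an adjusted p under 0.05: 2025 rose (9.04%) and 1963 fell (8.77%). The median change over all genes was 0.00, and the median size of a called change was 0.34. At least 2-fold were 123 genes (0.549%), 78 higher and 45 lower. Genes whose 3 shMed12-2 arrays lay all beyond the 3 shNTC arrays numbered 9699 (43.3%), so that a lack of overlap alone says little about a gene. Without shMed12-2 replicate 1, 3053 genes were called. With slide as a block, 2851 were called (12.7%), 1422 of them higher (6.35%) and 1429 lower (6.38%), and 2738 genes were called in the same direction in both fits.

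Of the 15 highest genes by the rule for named genes, 8 encode plasma proteins of the kind that set replicate 1 apart: Hp (3.69), Fgb (3.31), Alb, the acute phase protein Saa2 (2.20), the protease inhibitor Serpina1d (2.13), fibrinogen gamma chain (Fgg, 2.10), hemopexin (Hpx, 1.88) and complement C3 (1.58). Without that replicate Hp (2.69, adjusted p = 0.0431), Fgb (2.32, adjusted p = 0.0408), Saa2 (1.26, adjusted p = 0.0379) and Hpx (0.91, adjusted p = 0.0475) still passed, and Alb (adjusted p = 0.0571), Serpina1d, Fgg and C3 did not. A further probe of C3 gave 0.06. The remaining 7 of the 15 are 3 actins, Fgf5, Gbp2b, the filament protein Septin4 and 3830417A13Rik. Septin4 was at 0.63, 0.40 and 0.62 in shNTC cells and at 2.00, 2.08 and 2.00 with shMed12-2, a rise of 1.47. 3830417A13Rik rose by 1.57, and by 0.73 on a further probe. In all 7 the change without replicate 1 was also past the test.

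The muscle actins led the genes that were alike in the 3 replicates. Acta2, the actin of smooth muscle, was at -2.89, -2.83 and -3.01 in shNTC cells and at -0.84, -0.82 and -0.87 with shMed12-2. Actc1, of cardiac muscle, was at -2.35, -2.16 and -2.25 and at -0.22, -0.23 and -0.26. Acta1, of skeletal muscle, was at 0.38, 0.35 and 0.37 and at 2.22, 2.30 and 2.20. In each gene the gap between groups was many times the spread within them. Acta2 rose 4.20-fold (2.07, SE 0.0618, adjusted p = 1.01e-14), Actc1 4.04-fold (2.02, SE 0.0988, adjusted p = 1.41e-11) and Acta1 3.67-fold (1.88, SE 0.0804, adjusted p = 2.61e-12). Further probes of Acta2 gave 1.93 and 0.58. The actin genes are close relatives, and how far their probes bind each other's transcripts was not tested.

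The actins belong to a list of 35 measured genes of the actin cytoskeleton and of YAP, the coactivator of the Hippo pathway. Of these, 29 rose and none fell, with a median of 0.75. The list also holds keratins, annexins and S100 proteins. It was drawn up with earlier results of these data known, so its count is no independent test. The whole-array share of genes that rose was 9.04%, with a median of 0.00. With slide as a block 29 rose, and without shMed12-2 replicate 1, 28. In such bulk RNA, more cells that express a gene and more of its RNA per cell cannot be told apart. The actin-binding protein transgelin (Tagln) was at -0.03, 0.02 and -0.03 in shNTC cells and at 1.32, 1.35 and 1.27 with shMed12-2 (change 1.33, adjusted p = 5.25e-12; 1.24 by a further probe). Caveolin 1 (Cav1), the coat protein of caveolae, was at -6.66, -6.58 and -6.54 and at -5.13, -5.18 and -5.31 (change 1.39), but a further probe gave 0.22 and did not pass. The secreted YAP target Ccn1 rose by 1.01. The simple-epithelium keratin pair Krt18 and Krt8 rose by 1.40 and 1.26: Krt18 was at -1.21, -1.22 and -1.17 and at 0.17, 0.28 and 0.15, with no overlap. Members that did not pass were S100a6 (0.20), Ajuba (0.18), Axl (0.16), Lmna (0.06), Cav2 (0.42) and Ezr (-0.08), named after their values were seen.

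Serum response factor (SRF) is the transcription factor best known for driving muscle actin genes, through the CArG box in their promoters. The 250 bases before the start sites of Acta1 (chr8:123894776-123895025, minus strand) and Actc1 (chr2:114052876-114053125, minus strand), from RefSeq on GRCm38.p6 and written 5′ to 3′ on the strand of the gene, are shown because both hold a CArG box, marked in capitals.
Acta1: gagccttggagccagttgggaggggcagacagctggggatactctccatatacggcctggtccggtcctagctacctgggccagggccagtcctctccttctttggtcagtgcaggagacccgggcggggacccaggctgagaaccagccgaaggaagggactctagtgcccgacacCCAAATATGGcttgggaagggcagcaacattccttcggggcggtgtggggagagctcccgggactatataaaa
Actc1: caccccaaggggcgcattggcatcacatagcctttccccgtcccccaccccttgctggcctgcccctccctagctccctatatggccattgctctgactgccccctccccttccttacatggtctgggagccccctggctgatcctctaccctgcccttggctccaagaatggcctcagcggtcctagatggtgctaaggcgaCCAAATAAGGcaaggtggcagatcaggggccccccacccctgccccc
The box begins 73 bases before the start of Acta1 and 47 before that of Actc1. The box was searched as CCWWWWWWGG, where W is A or T, a pattern that reads alike on both strands. It was found in 482 of 32851 such windows in the genome (1.47%). Of the 28 list members with a window, 4 held it (14.3%): Acta1, Actc1, the calponin Cnn2 and vinculin (Vcl). All 4 rose, but so did 22 of the 28 in all. The first share counts windows, while a member counts once if any of its windows matched. The window of Acta2 held no exact match, and boxes that depart from the pattern were not searched. A match describes the letters and is no evidence of binding.

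**Figure D2:**
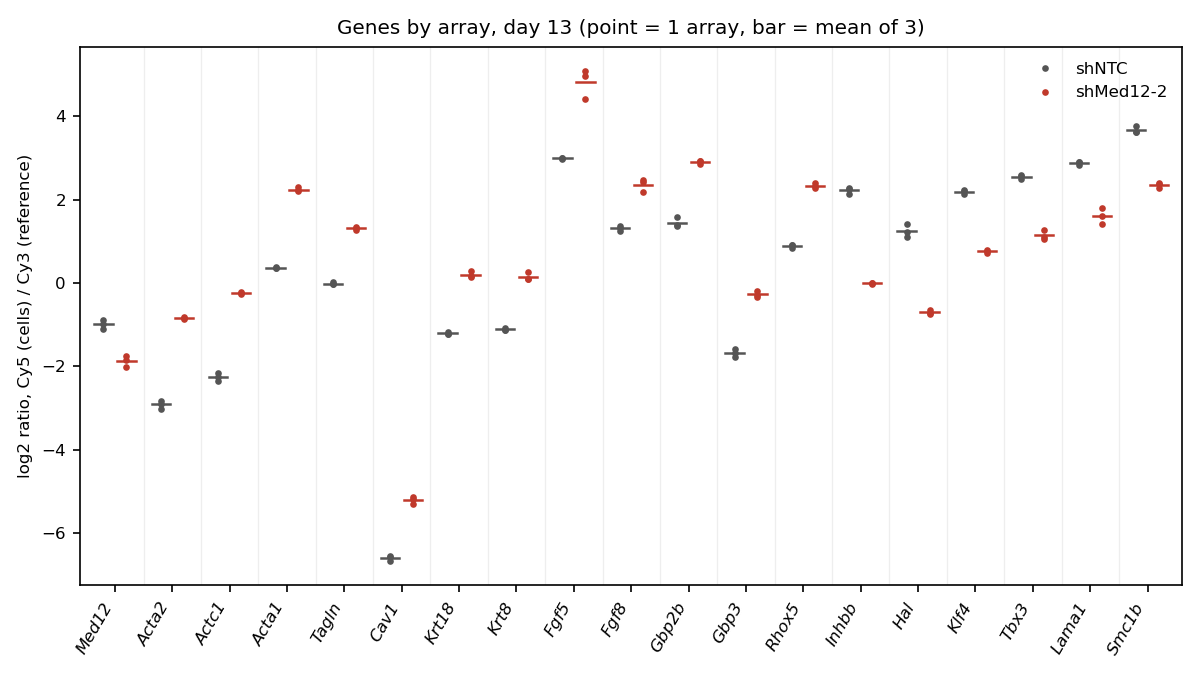
Log2 ratio of cells (Cy5) to reference (Cy3) on each of the 3 shNTC (grey) and 3 shMed12-2 (red) arrays of day 13 for 19 genes, with a bar at the group mean. In every gene shown the groups do not overlap. The rule for the highest and lowest genes required this, and it held for 43.3% of all genes. The actins, keratins, Fgf5 and the Gbp genes are higher and Med12, Inhbb, Hal, Klf4, Tbx3, Lama1 and Smc1b lower with shMed12-2.

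Fibroblasts, which serve as feeders in ES cell culture, also express many of these genes. The fibroblast list had 36 measured members, 14 higher and 2 lower (12 and 1 without shMed12-2 replicate 1; all genes 9.04% and 8.77%), with a median of 0.30, and a list mean of -3.83 to -3.65 in shNTC cells against -3.41 to -3.19 with shMed12-2. Of its members, 7 are also in the cytoskeleton list, and of the 29 that are not, 8 rose and 2 fell (median 0.26). The 8 were Col1a1 (0.94, limma adjusted p = 0.0266), Thbs1 (0.88), Cald1 (0.80), Vim (0.78), Timp3 (0.73), Col5a1 (0.65), S100a4 (0.51) and Timp1 (0.24). The surface antigen Thy1 fell by 0.36 and Fbln1 by 0.18. Among members that did not pass were the collagens Col1a2 (0.30) and Col3a1 (0.54), and Dcn (0.55), Lum (0.15) and Postn (0.24). All these members were named after their values were seen. A list of 10 interstitial cell markers, also drawn up after the values were seen, had means of -4.10, -3.31 and -4.20 on shMed12-2 replicates 1, 2 and 3 and of -4.46, -4.42 and -3.76 in shNTC cells. Col3a1 was at -6.43, -3.88 and -6.75 and at -7.09, -6.83 and -4.77, so that shMed12-2 replicate 2 and shNTC replicate 3 stood above the other arrays of their groups. The part of such cells in the result was not tested.

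Immediate early genes, which respond within minutes to growth factors through ERK and SRF, had 16 of 41 members higher and 2 lower, against shares of 9.04% and 8.77% over all genes (median 0.13; 13 and 2 without shMed12-2 replicate 1). Ier5, a regulator of the heat shock factor, went from -4.10, -4.10 and -4.06 to -2.83, -2.70 and -2.81, a rise of 1.30 (adjusted p = 4.16e-10). Ccn1 and Phlda1 (0.99) rose too. The 2 that fell were Klf4 and Klf10, the latter named after its values were seen.

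Pluripotency genes divided. In the naive and general pluripotency list, 10 of 36 fell and 2 rose (median -0.29), against 8.77% of all genes that fell. Without shMed12-2 replicate 1 the counts were 7 and 2. From the Cy5 channel alone, 17 fell and 5 rose, where 2361 of all 22394 genes fell and 2073 rose. Klf4, a Krüppel-like factor of the naive network, was at 2.22, 2.14 and 2.20 in shNTC cells and at 0.71, 0.79 and 0.78 with shMed12-2. Tbx3, a T-box factor of the same network, was at 2.50, 2.56 and 2.60 and at 1.10, 1.06 and 1.27. The replicates of each gene were close together and the groups far apart. Klf4 fell by 1.43 (SE 0.0561, adjusted p = 9.74e-13) and Tbx3 by 1.41 (SE 0.076, adjusted p = 6.47e-11), and within the 2 shared slides the differences were -1.43 and -1.41 for Klf4 and -1.46 and -1.53 for Tbx3. The adhesion molecule Jam2 fell by 0.70, and Klf5 by 0.25 (adjusted p = 0.0241), a call lost without shMed12-2 replicate 1.

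The core factors differed less by ratio. Pou5f1 differed by -0.06 (SE 0.255, adjusted p = 0.914), Klf2 by 0.04 (-0.18 by a further probe, which passed with adjusted p = 0.0347), Tfcp2l1 by -0.32 and Myc by -0.11. Sox2 was at 7.25, 7.17 and 6.95 and at 7.03, 6.25 and 6.93, groups that overlap (-0.39, adjusted p = 0.646). Zfp42 (Rex1), at 9.01, 9.08 and 8.98 against 8.61, 8.08 and 8.57, and Esrrb, at 6.43, 6.16 and 6.21 against 5.87, 5.54 and 5.67, did not overlap between groups but did not pass either (-0.61, adjusted p = 0.227, and -0.57, adjusted p = 0.102). The fit pools the spread over all 8 groups. The standard deviation of Esrrb was 0.15 with shNTC, 0.16 with shMed12-2 and 0.52 with shMed12-1. That of Zfp42 was 0.05, 0.29 and 0.74 in the same order. The reference signal for Sox2 was not well above background on any of the 6 arrays. For Esrrb it was on 6 and for Zfp42 on 5. From the Cy5 channel alone, Sox2 differed by -0.42 (adjusted p = 9.20e-04) and passed, as did Esrrb (-0.79, adjusted p = 2.04e-07) and Zfp42 (-0.76, adjusted p = 2.19e-08).

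The primed epiblast, the later pluripotent state after implantation, is marked by Fgf5. Fgf5 was at 2.99, 3.01 and 2.97 in shNTC cells and at 4.96, 4.41 and 5.07 with shMed12-2, without overlap. It rose 3.54-fold (1.82, SE 0.311, adjusted p = 2.39e-04), and its reference signal was not well above background on any of the 6 arrays, while Cy5 alone gave 1.95. Fgf8, a growth factor of the epiblast and streak, rose by 1.05 (adjusted p = 6.19e-06), N-cadherin (Cdh2) by 0.66 and the zinc finger factor Sall2 by 0.60. Of 24 members of the list, 6 rose and 1 fell (median 0.20). Krt18 and Pim2 are among the 6, and the methyltransferase Dnmt3a, named after its values were seen, fell. For this list and the next, the shares over all genes were 9.04% higher and 8.77% lower. Genes of the LIF receptor and STAT3 pathway, which sustains naive cells in culture, went 4 higher and 7 lower of 24 (median -0.11; 2 and 4 without shMed12-2 replicate 1), with the small GTPase Mras lower by 0.85 and the kinase Pim2 higher by 0.57 (0.48 by a further probe, adjusted p = 0.0596, which did not pass).

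Interferon-response genes had 14 of 35 members higher and none lower, with a median of 0.21, where 9.04% of all genes rose and 8.77% fell. They were 13 without shMed12-2 replicate 1 and 14 with slide as a block. The risen genes included guanylate-binding proteins, GTPases that interferon gamma induces against intracellular pathogens. Gbp2b was at 1.58, 1.38 and 1.38 in shNTC cells and at 2.93, 2.85 and 2.94 with shMed12-2 (change 1.46, SE 0.127, adjusted p = 5.49e-08). Gbp3 was at -1.76, -1.58 and -1.68 and at -0.28, -0.19 and -0.34 (change 1.40). Gbp2, at 0.73, 0.66 and 0.72 and at 1.90, 1.90 and 1.79, rose by 1.16, and the immunity-related GTPase Irgm1, at -2.19, -2.28 and -2.15 and at -1.08, -1.09 and -1.06, by 1.13. In all 4 genes the groups were well apart and the shMed12-2 replicates close together. The Gbp genes are close relatives, and how far their probes bind each other's transcripts was not tested. Among members that did not pass were the signal carrier Stat2 (0.00) and the antiviral gene Ifit2 (-0.04), named after their values were seen.

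Interferon acts through elements built on a repeat of GAAA, here searched as 2 copies of GAAA with any 2 bases between them. The 250 bases before the start sites of these 4 genes (RefSeq, GRCm38.p6, 5′ to 3′ on the strand of the gene) are shown because all 4 hold the repeat, in capitals. They are Gbp2 (chr3:142620413-142620662, plus strand), Gbp2b (chr3:142594597-142594846, plus strand), Gbp3 (chr3:142559794-142560043, plus strand) and Irgm1 (chr11:48871421-48871670, minus strand).
Gbp2: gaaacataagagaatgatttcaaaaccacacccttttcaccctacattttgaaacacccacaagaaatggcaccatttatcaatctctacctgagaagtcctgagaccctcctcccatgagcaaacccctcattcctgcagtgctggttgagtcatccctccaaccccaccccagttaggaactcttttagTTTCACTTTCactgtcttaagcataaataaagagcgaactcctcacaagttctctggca
Gbp2b: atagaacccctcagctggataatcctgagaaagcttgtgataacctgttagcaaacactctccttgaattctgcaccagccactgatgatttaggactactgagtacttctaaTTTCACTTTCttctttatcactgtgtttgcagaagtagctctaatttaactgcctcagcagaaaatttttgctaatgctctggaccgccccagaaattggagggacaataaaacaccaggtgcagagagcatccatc
Gbp3: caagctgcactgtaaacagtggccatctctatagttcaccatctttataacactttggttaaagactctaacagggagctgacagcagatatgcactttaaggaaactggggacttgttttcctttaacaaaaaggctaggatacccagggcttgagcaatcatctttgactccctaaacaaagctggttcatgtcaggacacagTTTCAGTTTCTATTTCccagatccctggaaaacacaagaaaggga
Irgm1: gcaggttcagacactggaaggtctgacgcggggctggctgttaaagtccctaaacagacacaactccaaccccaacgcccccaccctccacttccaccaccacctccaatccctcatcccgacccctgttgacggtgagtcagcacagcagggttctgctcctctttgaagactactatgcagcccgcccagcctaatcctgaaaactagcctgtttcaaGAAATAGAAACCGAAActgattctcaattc
The 3 Gbp windows carry the repeat on the opposite strand, where the copies read TTTC, from 59 bases before the start in Gbp2 and from 137 in Gbp2b. Gbp3 and Irgm1 each hold 2 overlapping copies, which begin 45 and 39 bases and 30 and 24 bases before the start. The repeat was found on either strand in 978 of 32851 windows (2.98%). It was found in 13 of the 28 interferon list members with a window (46.4%) and in 10 of the 14 members that rose (71.4%). The first share counts windows, while a member counts once if any of its windows matched. Members with the repeat that did not pass were Stat2, Ifit3 and Oas1a. Genes of this list are known as interferon targets, so its share was set in part by how it was drawn up.

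**Figure D3:**
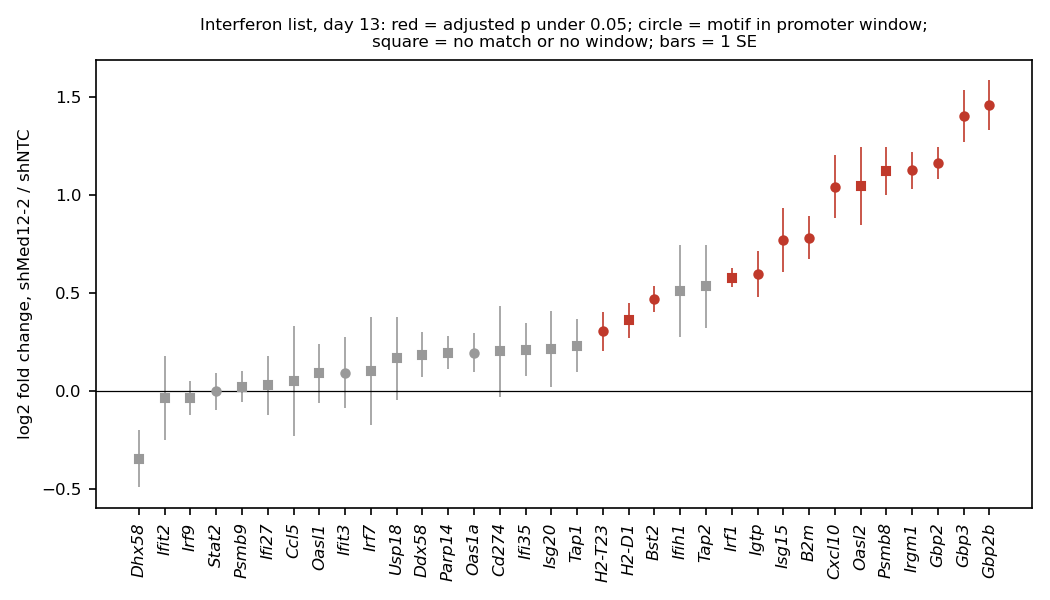
Change with shMed12-2 against shNTC (log2 scale, bars of 1 SE) for measured members of the interferon list, in red where the adjusted p was under 0.05, with a circle where the 250 bases before the start hold the GAAA repeat on either strand. The 14 members that rose are in red, and 10 of them are circles.

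Enzymes of cholesterol and fatty acid synthesis had 17 of 39 members higher and 3 lower, beside 9.04% and 8.77% of all genes (median 0.22; 15 and 2 without shMed12-2 replicate 1, and 16 and 3 when slide was a block). Msmo1, a demethylase of sterol synthesis, was at -1.57, -1.53 and -1.55 and at -0.78, -0.86 and -0.81 (change 0.73, adjusted p = 7.85e-08). The fatty acid desaturase Scd2 rose by 0.67. Abcg1, which exports cholesterol, fell by 0.76, from -0.47, -0.48 and -0.55 to -1.30, -1.22 and -1.28. With median centring of the arrays in place of loess, the list median was 0.13 and 2 members rose.

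The lowest gene was Inhbb, which encodes the beta B subunit of activin and inhibin. Its ratio was 2.14, 2.25 and 2.27 in shNTC cells and -0.02, 0.01 and 0.00 with shMed12-2, so the groups were far apart. It fell by 2.23 (SE 0.0578, adjusted p = 1.36e-15), and a further probe, which also passed, gave -0.43. Hal, the first enzyme of histidine breakdown, was at 1.22, 1.10 and 1.42 and at -0.73, -0.73 and -0.64 (fell by 1.95, adjusted p = 1.58e-12). Others among the 15 lowest were Zfyve28 (-1.54), the arginine methyltransferase Prmt8 (-1.49), the membrane collagen Col13a1 (-1.44), the fructose transporter Slc2a5 (-1.39), Crtac1 (-1.38), Igsf21 (-1.37), the synaptic organiser Cbln1 (-1.35), the lipid droplet protein Cidea (-1.34) and the actin nucleator Cobl (-1.30). A further probe of Cbln1 gave -0.15 and did not pass. The fall of Cidea did not pass with a background offset of 0. The reference signal of Prmt8 was not well above background on any of the 6 arrays, nor was that of Lama1 or Ldhc, described with their lists; from Cy5 alone the 3 differed by -1.24, -1.07 and -0.97 and passed.

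Ube2d3, a ubiquitin-conjugating enzyme, fell with shMed12-2. It was at -0.06, 0.06 and 0.00 in shNTC cells and at -1.34, -1.31 and -1.29 with shMed12-2, against -0.19, -0.10 and -0.05 with shMed12-1. The difference from shNTC was -1.31 (SE 0.0633, adjusted p = 1.23e-11), that from shMed12-1 was -1.20 (adjusted p = 4.81e-11), and shMed12-1 itself differed from shNTC by -0.11 (adjusted p = 0.21), which did not pass. Its further probes gave -0.19 and -0.52 against shNTC.

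Genes of the TGF-beta, NODAL and BMP pathway other than Inhbb went both ways, with 7 of 38 higher and 4 lower in all. For this list and the WNT, Notch and Hedgehog lists, the shares over all genes were 9.04% higher and 8.77% lower. The ligand Tgfb2 rose by 1.12, and the matrix protein Tgfbi, from 1.33, 1.32 and 1.39 to 0.50, 0.49 and 0.52, fell by 0.85. WNT targets went 5 higher and 5 lower of 31. Notum, a secreted WNT inhibitor, and the growth factor Fgf18 fell by 1.27 and 1.24, and the matricellular gene Ccn4 and the factor Sp8 rose by 0.91 and 0.83. Notch genes (3 and 3 of 26) included the ligase Dtx4, higher by 0.81, and the receptor Notch4, lower by 0.58. Hedgehog genes (3 and 1 of 22) included the transducer Smo, higher by 0.40 (0.29 by a further probe). With slide as a block, which called 6.35% of all genes higher and 6.38% lower, the TGF-beta list had 4 higher and 4 lower and the WNT list 3 and 5.

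The medians of the lineage lists lay near that of all genes. Over all genes, 9.04% rose and 8.77% fell, and with slide as a block 6.35% and 6.38%. Of 34 genes of primitive and definitive endoderm 9 rose and 5 fell (median 0.03). The fallen ones included the basement membrane laminin Lama1, from 2.90, 2.91 and 2.82 to 1.61, 1.42 and 1.80 (-1.26, adjusted p = 0.011), and the endoderm factors Gata6 (-0.83) and Foxa2 (-0.60), although further probes of Gata6 gave 0.05 and -0.17 and did not pass. The risen ones included Krt8 and Krt18. Of 20 trophectoderm genes, of the outer layer of the blastocyst, 6 rose and none fell (median 0.06, and 4 and 0 without shMed12-2 replicate 1). The cytoskeleton and YAP list shares 3 of these genes, which all rose. Of the 17 that it does not share, 3 rose and none fell (median 0.02). Gata3, a factor of that layer, went from -2.90, -2.93 and -2.87 to -2.21, -2.23 and -2.19, a rise of 0.69. Early mesoderm genes went 4 and 4 of 27 (4 and 2 without shMed12-2 replicate 1, and 3 and 2 with slide as a block), with Actc1 and Fgf8 higher and Tbx3 and the atrial myosin light chain Myl7 (-0.69; not called without shMed12-2 replicate 1) lower. Neural genes went 7 higher and 2 lower of 34 (median 0.07): the progenitor filament nestin (Nes) went from 0.43, 0.58 and 0.52 to 1.57, 1.55 and 1.52 (change 1.04, adjusted p = 2.72e-11), and the factors Zic1 and Meis2 rose by 0.97 and 0.86. Blood and endothelial markers went 0 higher and 2 lower of 20, Cd34 (-0.60) and Eng (-0.55).

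Germ line and meiosis genes had 6 of 33 lower and 1 higher (median -0.22), where 8.77% of all genes fell and 9.04% rose. From the Cy5 channel alone, 12 fell and 4 rose, where 2361 of all 22394 genes fell and 2073 rose. The meiotic cohesin Smc1b went from 3.62, 3.75 and 3.63 to 2.37, 2.28 and 2.40 (-1.32, adjusted p = 0.0106; adjusted p = 0.056 with slide as a block). With a background offset of 0, Smc1b did not pass. Stra8, the gene that licenses meiosis, fell by 1.29 and the testis lactate dehydrogenase Ldhc by 0.99. The exception was Rhox5, an X-linked homeobox gene held silent by DNA methylation in many cells, at 0.90, 0.85 and 0.90 and at 2.39, 2.33 and 2.27. It rose by 1.45 (SE 0.0595, adjusted p = 1.58e-12). In a list of DNA methylation and Polycomb genes, 10 of 37 fell and 1 rose (median -0.03; 7 and 0 without shMed12-2 replicate 1), among them the corepressor Rcor2 (-0.49), the dioxygenase Tet2 (-0.45), the methyltransferase Prmt1 (-0.75) and the neuronal repressor Rest (-0.43, with -0.20 by a further probe). Tet2 and Prmt1 did not pass without replicate 1. REST targets went 3 and 2 of 31. Genes of the 2-cell-like state went 0 higher and 2 lower of 14 (median -0.33), and 1 higher and 8 lower from the Cy5 channel alone. Zscan4c, a marker of that state, was lower by 0.84 (limma adjusted p = 0.0405), a call lost without replicate 1. Its further probe gave -0.76 and did not pass. P4ha2, a collagen prolyl hydroxylase, was lower by 0.45. Imprinted genes went 8 and 3 of 33, with Peg3 (0.78, 0.31 by a further probe), Impact (0.64) and Mest (0.55) higher and Slc22a18 (-0.66, 0.12 by a further probe) lower.

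Stress and growth lists were mixed. Of all genes, 9.04% rose and 8.77% fell, and with slide as a block 6.35% and 6.38%. p53 targets had 7 of 33 lower and 3 higher (median -0.06; 4 and 1 without shMed12-2 replicate 1, and 4 and 2 with slide as a block). Sesn1, a p53 target that restrains mTORC1, went from -0.99, -0.95 and -0.93 to -1.96, -2.06 and -1.95 (-1.03, with -0.60 and -0.34 by further probes), while the cell cycle inhibitor Cdkn1a rose by 0.37. Genes of amino acid and unfolded protein stress went 13 higher and 8 lower of 43 (median 0.04; 13 and 5 with slide as a block). Those that rose included Atf3 (0.75), Herpud1 (0.60) and Dnajc3 (0.51; 0.28, 0.17 and 0.31 by further probes, of which the 0.17 did not pass), and the mitochondrial folate enzyme Mthfd2 fell by 0.65. Hypoxia and glycolysis genes had 6 of 37 lower and 1 higher, led by Pfkp (-0.73), whose further probe gave -0.07. Cell cycle genes went 5 and 7 of 45, with the D-type cyclin Ccnd2 lower by 0.77 (-0.62 and -0.65 by further probes) and the inhibitor Cdkn2b higher by 0.62. MYC targets went 2 and 3 of 38 and HOX genes 1 and 1 of 25, shares below those of all genes. Centring arrays on their medians in place of loess called 1104 of 22394 genes, 320 higher and 784 lower. In most lists it called fewer members than above. The members called higher numbered 19 in the cytoskeleton and YAP list, 8 in the interferon list, 7 in the immediate early list, 10 in the fibroblast list, 3 in the primitive endoderm list and 3 in the trophectoderm list. The list of amino acid and unfolded protein stress had 1 higher and 2 lower, the cell cycle list 0 and 2, the hypoxia and glycolysis list 0 and 2, the p53 targets 0 and 3 and the list of DNA methylation and Polycomb genes 0 and 4. In the naive pluripotency list 9 were lower, and in the germ-line list 6.

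**Figure D4:**
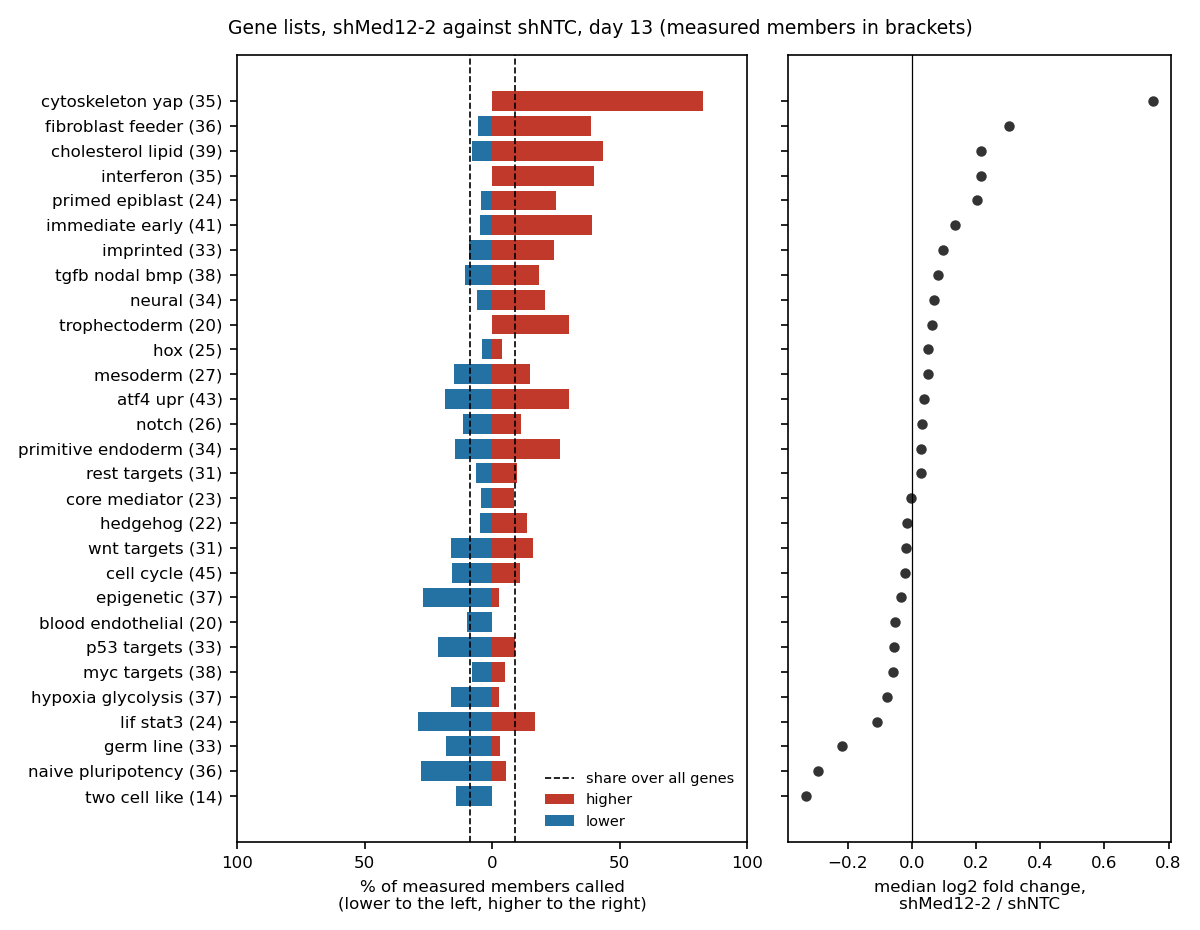
Gene lists, apart from that of the kinase module, ordered by median change, shMed12-2 against shNTC on day 13. Left, the percentage of measured members that rose (red) or fell (blue), with dashed lines at the shares over all genes (9.04% higher, 8.77% lower); right, the median change on the log2 scale. The cytoskeleton and YAP list stands highest with 29 of 35 higher and a median of 0.75. The naive pluripotency list is near the bottom with 10 of 36 lower. The lists were drawn up with earlier results of these data known.

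The direct comparison of the 2 hairpins against Med12 called 4817 genes (21.5%), 2314 higher (10.3%) and 2503 lower (11.2%) with shMed12-2, although Med12 itself did not differ detectably between them (0.12, SE 0.0774, adjusted p = 0.304). No slide held an array of both hairpins, and all their arrays lay at position 4. With slide as a block, 1385 genes were called. The ratios of shMed12-1 replicate 3 were compressed, with a slope of 0.79 on the other replicates of its group; without shMed12-1 replicate 3, 4006 genes were called, and without shMed12-2 replicate 1, 3650.

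Of the 8 genes furthest above shMed12-1, 6 encode plasma proteins of the kind that set shMed12-2 replicate 1 apart, and the other two are the epiblast genes Fgf5 and Fgf8. Fgf5 was at 4.96, 4.41 and 5.07 with shMed12-2 and at 2.08, 2.15 and 0.92 with shMed12-1, on either side of the controls, with the lowest value on the compressed array. The difference was 3.09 (SE 0.311, adjusted p = 4.18e-07), made of 1.82 above shNTC with one hairpin and -1.27 with the other (adjusted p = 0.0051). Fgf8 differed by 1.97 (adjusted p = 1.43e-09), again with shMed12-1 below shNTC (-0.93). Pim2 differed by 1.23 and Sall2 by 1.00. For the lists in this comparison, the shares over all genes were 10.3% higher and 11.2% lower. Of the 24 members of the primed epiblast list, 15 were higher with shMed12-2 and 1 was lower, with a median difference of 0.58. Neural genes were 13 higher and none lower of 34, with Zic1 (1.11) and Nes (1.01). Pou5f1 was at 5.48, 5.57 and 5.37 with shMed12-1 and 1.06 higher with shMed12-2 (adjusted p = 0.00493). Interferon genes were 12 higher and 1 lower of 35, among them Gbp2b by 1.05 and Gbp3 by 0.96.

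Trophectoderm and keratin genes lay on the other side. Krt7, a keratin of trophectoderm, was at 0.40, 0.50 and 0.61 with shMed12-2 and at 2.38, 2.52 and 2.22 with shMed12-1, against -0.09, -0.02 and 0.05 in shNTC cells. Gata2, a trophectoderm factor, was at -1.29, -1.34 and -1.19, at 0.26, 0.26 and 0.27, and at -1.37, -1.48 and -1.50. Krt7 rose by 0.52 with shMed12-2 and Gata2 did not pass (0.18, adjusted p = 0.316), while both stood well above the control with shMed12-1, and the differences between the hairpins were -1.87 and -1.54. Of 20 trophectoderm genes, 11 were lower with shMed12-2 and none higher (median -0.60), where 11.2% of all genes were lower and 10.3% higher. Krt18 and Krt8 differed between the hairpins by -1.20 and -1.01, and both rose against shNTC, by 1.40 and 1.26 with shMed12-2 and by 2.60 and 2.27 with shMed12-1. The actin-severing protein gelsolin (Gsn), at -4.42, -4.39 and -4.49 with shMed12-2 and -2.48, -2.50 and -2.45 with shMed12-1, differed by -1.96. Further genes among the lowest were Plac8 (-1.98), Wnt6 (-1.52), Hal (-1.51) and the cytokine Il34 (-1.46). Plac8 and Wnt6 fell against shNTC with shMed12-2 (by 1.18 and 0.40) and rose with shMed12-1 (by 0.80 and 1.12).

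The muscle actins differed less between the 2 hairpins. Acta1 differed by 0.08 (SE 0.0804, adjusted p = 0.561), Acta2 by 0.26 (adjusted p = 0.00398) and Actc1 by 0.68 (adjusted p = 4.18e-05), and Tagln by -0.14 (adjusted p = 0.0987). Their changes against the same shNTC arrays were 1.80, 1.81, 1.34 and 1.47 with shMed12-1. Of the 35 members of the cytoskeleton and YAP list, 16 were lower and 4 higher with shMed12-2 than with shMed12-1 (median -0.23), the lower ones led by the keratins. Klf4 and Tbx3 were lower with shMed12-2 by 0.83 and 1.39. With shMed12-1, Klf4 differed from shNTC by -0.60 (limma adjusted p = 1.5e-07). Tbx3 was at 2.54, 2.63 and 2.42 with shMed12-1, where it did not pass against shNTC (-0.02). p53 targets were 14 lower and 2 higher of 33 with shMed12-2, and hypoxia and glycolysis genes 13 lower and 3 higher of 37. For these lists and the cytoskeleton and YAP list, the shares over all genes were 11.2% lower and 10.3% higher.

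**Figure D5:**
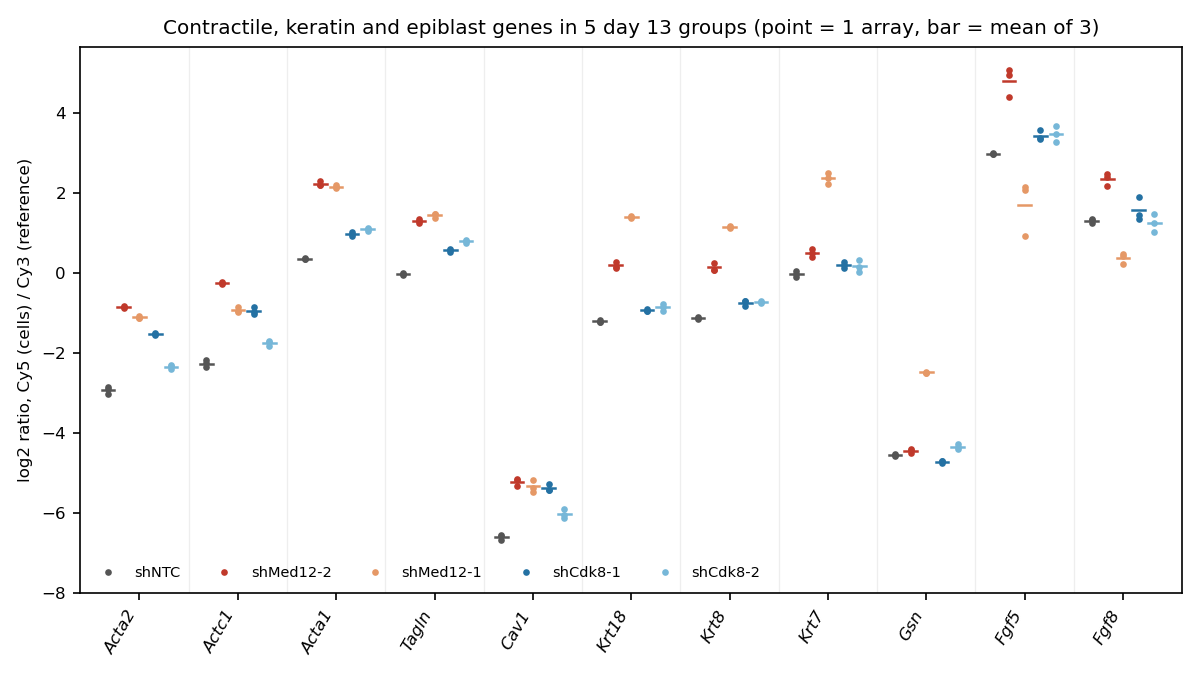
Log2 ratio of cells (Cy5) to reference (Cy3) for 11 genes in the 5 groups of day 13, with a point for each array and a bar at the mean of 3. Acta2, Acta1 and Tagln are highest with the hairpins against Med12, Krt7 and Gsn are far higher with shMed12-1 than in any other group, and Fgf5 and Fgf8 are highest with shMed12-2 and lowest with shMed12-1.

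Set against the hairpins for Cdk8, the kinase of the same module, shMed12-2 differed at 2555 genes from shCdk8-1 (11.4%; 5.66% higher and 5.75% lower) and at 3407 from shCdk8-2 (15.2%; 7.84% higher and 7.37% lower). These counts were 1137 and 1358 when slide was a block. Med12 was 0.97 and 1.00 lower and Cdk8 0.78 and 0.47 higher with shMed12-2. Of the cytoskeleton and YAP list, 23 and 20 of 35 members were higher with shMed12-2 and none lower, with median differences of 0.40 and 0.37, where the medians over all genes were 0.00. Acta2 was at -1.54, -1.50 and -1.51 with shCdk8-1 and at -2.30, -2.38 and -2.32 with shCdk8-2, between shNTC and shMed12-2, and lay 0.68 and 1.49 higher with shMed12-2. Krt18 was 1.12 and 1.04 higher and Fgf5 1.37 and 1.33 higher.

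Of the 8 genes furthest above both Cdk8 hairpins, 7 encode plasma proteins: Fgb, Alb, Fgg, Saa2, Hpx, the bikunin precursor Ambp and the protease inhibitor Mug1; Ambp overlapped with shNTC. The exception was Rhox5. Rhox5 was at 0.91, 0.87 and 0.80 with shCdk8-1 and at 0.98, 0.90 and 0.75 with shCdk8-2, at the level of the controls, and was 1.47 and 1.45 higher with shMed12-2; with shMed12-1 it was at 1.46, 1.49 and 1.61. The genes furthest below both Cdk8 hairpins were Inhbb (-1.33 and -1.81), Notum (-1.82 and -1.13), Hal (-0.93 and -1.89), Ube2d3 (-1.35 and -1.50), Fgf18 (-1.72 and -0.91), Prmt8 (-1.22 and -1.32), the SKI-family corepressor Skor1 (-1.16 and -1.30) and Klf4 (-1.24 and -1.22). Klf4 was at 2.04, 2.01 and 1.95 with shCdk8-1 and at 2.08, 1.99 and 1.87 with shCdk8-2, much nearer to the controls than to shMed12-2. Its differences from shNTC were small but passed: -0.19 with shCdk8-1 (limma adjusted p = 0.0325) and -0.21 with shCdk8-2 (limma adjusted p = 0.0175). Tbx3 fell with shCdk8-1 too, by 1.17, to 1.52, 1.35 and 1.28, and was a further 0.24 lower with shMed12-2 (adjusted p = 0.043). Nes, Gbp2b and Zic1 rose with shCdk8-1 as well, by 0.73, 1.10 and 1.06, and shMed12-2 lay 0.31 above it for Nes (adjusted p = 5.46e-04) while Gbp2b (0.36, adjusted p = 0.0739) and Zic1 (-0.09, adjusted p = 0.737) did not differ detectably.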

How the data were processed

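The 24 arrays hold 45018 spots each, 1639 of them controls, and 41174 probes, of which 22951 matched a gene symbol. Per the file headers, the deposited values are median spot and background intensity of each channel and a log10 ratio of Cy5 over Cy3. A table of the authors holds log2 ratios of the same arrays (slope 1 against the scanner ratios, array medians -0.00 to 0.12), whose centring is unstated. Scanning used Feature Extraction 10.7, per the submitters' processing notes. The cells were labelled with Cy5 per the labels, and 750 ng of cRNA was hybridised.

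Intensities were background-corrected (normexp, offset 50) and loess-normalised within each array. Median intensities were used where mean intensities had been planned. Control spots and outlier spots (177 to 255 on the 6 arrays) were left out; no spot was saturated. A probe was kept where some group had its Cy5 signal well above background on each of its 3 arrays, and the brightest stood for its gene (22394 genes, 13731 with a symbol). limma 3.58.1 in R 4.3.3 fitted 8 group means to all 24 arrays (16 residual degrees of freedom), with Benjamini-Hochberg adjustment over all genes and a threshold of 0.05. Further probes have p-values adjusted over all probes. The code was tested on simulated data.

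Named genes were the kinase module, 11 pluripotency factors, the 15 highest and 15 lowest called genes with a symbol whose groups did not overlap, up to 4 called members of each of 30 lists, and 8 genes in each direction against the other hairpins. Members and lists were chosen with earlier results of these data known. Promoters (250 bases) are RefSeq's on GRCm38.p6. Med13, Med12l and Nanog matched no probe by symbol and are not analysed here. Some genes that the rule or a list holds are not reported here, in the text or in the plot of the interferon list. Alternatives changed the background correction, normalisation, probe filter, samples in the fit, blocks and weights, and left out each replicate.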

Additional observations from a re-analysis of the deposited data

How the results depend on the processing

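The number of genes changed against shNTC (3988) was 1104 with median centring in place of loess (320 higher and 784 lower), 6149 with only the 2 groups compared and 6899 with array weights, and 2944 to 3231 when 1 replicate of either group was left out. Against shMed12-1 (4817) it was 1199 with median centring (353 higher, 846 lower), 1385 with slide as a block (541 higher, 844 lower) and 8730 with array weights, and 3650 to 4469 with 1 replicate left out. Normexp with offset 0 gave 5169, of which 2867 were higher. Against shCdk8-1 (2555) it was 303 with median centring (75 higher, 228 lower), 4524 with the Feature Extraction ratio, 4529 with the authors' value table, 1137 with slide as a block (461 higher, 676 lower) and 4682 with array weights. Against shCdk8-2 (3407) it was 550 with median centring (186 higher, 364 lower), 5516, 5507, 1358 and 5179 in the same order. Leaving out 1 replicate gave 1809 to 1867 and 2515 to 2585. The causes were not tested. Median centring moved the median of all genes to -0.06. Without shMed12-1 replicate 3 and the compressed array of shCdk8-1 on day 8, an alternative chosen after seeing the data, 5388, 5109, 3826 and 4640 genes were called.

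Med12 differed by -1.03 within slide 2 and by -0.94 to -0.81 with 1 replicate left out. With the replicate number as a block, 3898, 4691, 2488 and 3344 genes were called and Med12 differed by -0.88 (limma adjusted p = 1.20e-07). Same-numbered arrays of the 2 groups did not deviate together over all genes (correlations -0.00, -0.05 and -0.02). Such values cannot decide whether equal numbers mark a shared culture, because array noise also enters them. The main fit did not treat the numbers as pairs.

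Over the 139 named genes and 22 settings, 2895 of 3054 values kept their side of the threshold. No gene called in the main fit changed sign in these settings. Genes that were not called could change sign: Pou5f1 differed by -0.06 in the main fit and by 0.08 with slide as a block. Within slide 2 alone, the called gene Ambp differed by -0.17. Without shMed12-2 replicate 1, 16 named calls were lost. Probes not well above background in the reference, as for Sox2 and Fgf5, limit the ratio there.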
